A study of Mus musculus with 36 samples.

Results

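Macrophage polarization is read from a small set of marker genes, and 10 of them, chosen by symbol among the 46078 genes counted, are described here across the libraries of the series: Nos2, Irg1, Arg1, Arg2, Mrc1, Il1b, Il1rn, Il10, Cd38 and Chil3. Irg1 is the older symbol of Acod1, and all 10 were found. In macrophages 9 of them had at least 1 read, and 5 (Nos2, Irg1, Arg2, Mrc1 and Il1rn) had enough counts to be tested.

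The macrophages were RAW264.7, an established mouse line. They were taken from transwell cocultures, in which macrophages and cancer cells share medium across a porous membrane without mixing. Their partners were mouse prostate cancer cells of the line RM-1-BM that carried either an empty vector or SPOP F133V, a mutant form of the protein that brings substrates to a cullin ubiquitin ligase. Cultures were given DMSO as vehicle or olaparib, which blocks the DNA repair enzymes of the PARP family. This gives 4 macrophage groups of 3 libraries, named here by partner and drug, and 8 groups of 3 cancer libraries as background, from vector and F133V cells, each grown alone and in coculture with either treatment. Macrophages grown alone and primary macrophages were not analysed here, and the labels name no cytokine or bacterial product added to polarize the cells. The vector partner of the 3 macrophage libraries with olaparib comes from their group entry alone, since their titles name macrophages and olaparib but no partner, and every value given for that group rests on this entry. Olaparib was in the medium of both cell types, so an action on the macrophages and one through the partner cannot be told apart. Whether libraries of 1 group stem from separate cultures is not in the labels, so a p-value here speaks only to the spread among the libraries at hand.

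Classical activation, as by interferon-gamma or bacterial products, is known for inducible nitric oxide synthase (Nos2), which makes nitric oxide from arginine, and for Irg1, the mitochondrial enzyme that makes itaconate from the citric acid cycle intermediate aconitate. Alternative activation, as by interleukin-4, is known in mouse cells for arginase 1 (Arg1), which competes for the same arginine, for the mannose receptor (Mrc1, CD206) and for the chitinase-like protein Chil3 (Ym1). Interleukin-1 beta (Il1b) and its receptor antagonist (Il1rn) act on one receptor in opposite directions, interleukin-10 (Il10) restrains inflammatory genes, and Cd38 is an enzyme at the cell surface that consumes NAD and is often used as a marker of inflammatory mouse macrophages.

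Gene counts per library ran from 30292309 to 37340425 in macrophages and from 32063028 to 43062440 in cancer cells. Levels are given as counts-per-million values (CPM), scaled with edgeR's TMM factors within each cell type separately, so a level set across cell types is approximate. A gene was called when the Benjamini-Hochberg adjusted p of edgeR's quasi-likelihood test, over all genes tested in the comparison, was under 0.05. The 14 macrophage markers used for this check, among them Lyz2, Csf1r and Adgre1, summed to 9470 to 11200 CPM in the macrophage libraries and to 15.3 to 53.4 in the cancer libraries. Mertk, also on this list, went the other way, with group means of at most 0.0874 CPM in macrophages and 2.61 to 26 in cancer cells. The 20 epithelial and stromal genes of the partner cells summed to 3.13 to 5.6 CPM in macrophages, with 7 to 9 of the 20 at no count in a group, and to 2010 to 10200 in cancer cells. The macrophage label thus held in the data. In bulk RNA, fewer cells expressing a gene and less of its RNA per cell cannot be told apart.

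The start regions of 3 of the tested members are shown first, because Irg1 and Il1rn were both lower for the F133V partner with DMSO and both higher with olaparib opposite F133V cells, while Mrc1 was not called in the former and was lower in the latter. With olaparib opposite vector cells Irg1 fell, as Mrc1 did, and Il1rn was not called. Nos2, Arg1, Arg2 and Il10 had no entry in the table of start regions. Each is 250 bases before to 50 bases after a RefSeq transcription start (GRCm38.p6), read 5′ to 3′ on the plus strand, which is the strand of these genes. Il1rn has 3 such windows in RefSeq, those of start sites 2 and 3 overlap, and start sites 1 and 3 are printed. Capitals mark matches to any of the short patterns searched.
Irg1, chr14:103046762-103047061: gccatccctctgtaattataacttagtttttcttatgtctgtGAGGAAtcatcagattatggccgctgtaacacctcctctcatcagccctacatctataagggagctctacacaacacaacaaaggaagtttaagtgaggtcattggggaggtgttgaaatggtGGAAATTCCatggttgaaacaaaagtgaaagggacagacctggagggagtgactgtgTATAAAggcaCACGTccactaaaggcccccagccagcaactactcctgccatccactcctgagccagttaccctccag
Il1rn start site 1, chr2:24336610-24336909: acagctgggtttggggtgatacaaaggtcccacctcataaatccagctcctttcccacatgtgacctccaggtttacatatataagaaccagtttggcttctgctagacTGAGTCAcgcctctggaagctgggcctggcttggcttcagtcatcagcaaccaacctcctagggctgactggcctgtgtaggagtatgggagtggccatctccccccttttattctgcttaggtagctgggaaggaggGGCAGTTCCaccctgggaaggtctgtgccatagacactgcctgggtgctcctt
Il1rn start site 3, chr2:24345121-24345420: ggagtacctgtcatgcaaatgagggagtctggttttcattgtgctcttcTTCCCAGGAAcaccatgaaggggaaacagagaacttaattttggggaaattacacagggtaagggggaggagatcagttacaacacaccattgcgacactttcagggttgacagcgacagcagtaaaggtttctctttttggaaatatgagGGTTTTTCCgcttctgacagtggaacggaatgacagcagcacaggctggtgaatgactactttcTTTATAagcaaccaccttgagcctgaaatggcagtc
Mrc1, chr2:14229164-14229463: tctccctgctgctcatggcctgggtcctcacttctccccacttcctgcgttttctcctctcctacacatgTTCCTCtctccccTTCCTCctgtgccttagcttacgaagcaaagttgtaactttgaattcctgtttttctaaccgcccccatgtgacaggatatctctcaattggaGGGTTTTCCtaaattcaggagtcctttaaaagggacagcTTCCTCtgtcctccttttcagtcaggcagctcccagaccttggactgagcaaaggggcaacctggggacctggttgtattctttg

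The patterns were searched on both strands, and positions are those of the first base relative to the start site. They were NF-kB (GGNNNTTCC), interferon response (GAAANNGAA), C/EBP (TTNNGCAA), AP-1 (TGANTCA), STAT (TTCNNNGAA), STAT6, PU.1 (GAGGAA), the TATA box (TATAAA), antioxidant response (TGACNNNGC) and hypoxia (ACGTG). Irg1 held an NF-kB match at −85 that reads on both strands, a TATA box at −28, a PU.1 match at −208 and a hypoxia match at −18. Il1rn held an NF-kB match in both printed windows, at −3 and at −50, with an AP-1 match at −141 of start site 1, and a STAT6 match at −201 and a TATA box on the minus strand at 14 of start site 3. Mrc1 also held an NF-kB match, at −74, and 3 PU.1 matches at −180, −167 and −35. No matches to different patterns overlapped in these windows. Such short patterns are common: of 32851 mouse start regions of the same length, 18.5% held the NF-kB letters, 28.3% PU.1, 13.6% the TATA box, 19.6% hypoxia, 7.81% AP-1 and 6.95% STAT6. The NF-kB letters were present in the printed windows of all 3 genes. Among the windows not printed, those of Il1rn start site 2 and Chil3 held them and those of Il1b and Cd38 did not.

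**Figure D1:**
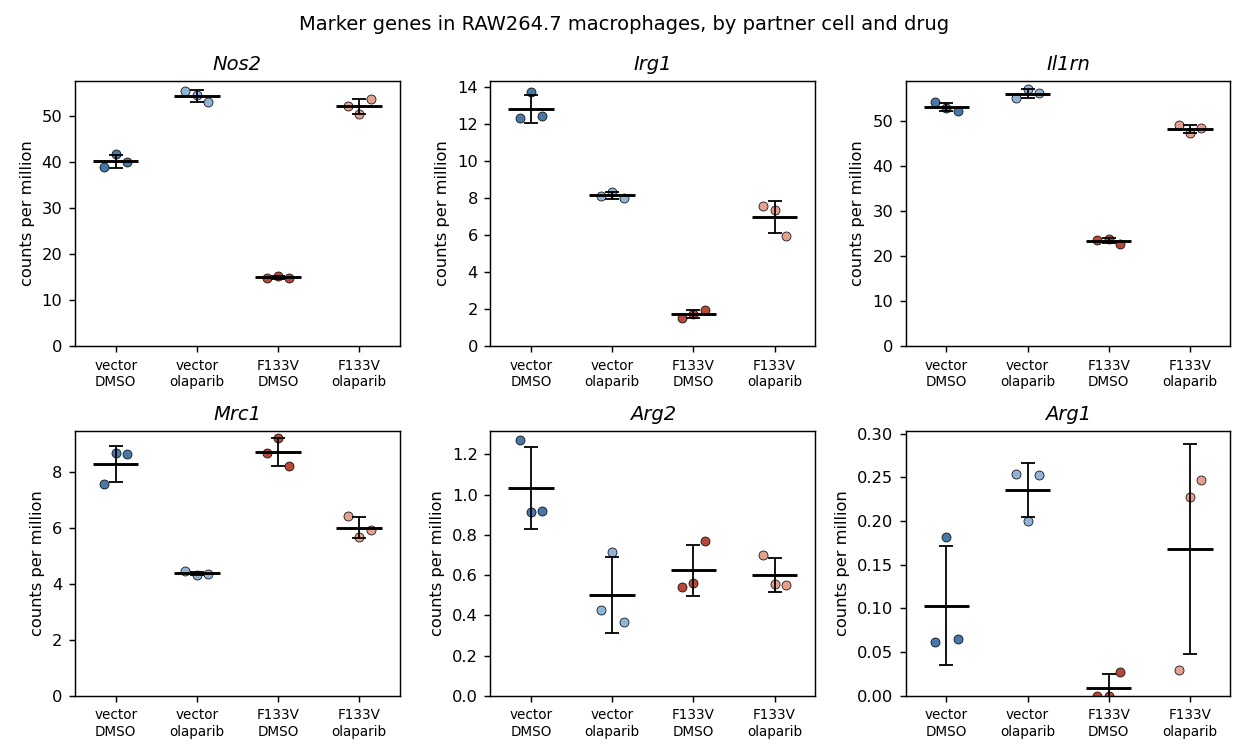
Levels in CPM (vertical axis, from 0) of 6 marker genes in the 4 macrophage groups, named by partner and drug. Each point is 1 library, the wide bar is the mean and the thin bar is ± 1 SD of 3 libraries. Nos2, Irg1 and Il1rn are lowest opposite F133V cells with DMSO, while Mrc1 is low in both olaparib groups and Arg1 is under 0.3 CPM in every library.

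Opposite F133V cells with DMSO, macrophages held less Nos2, Irg1 and Il1rn RNA than opposite vector cells with DMSO, by 2.68-, 7.39- and 2.26-fold, while Mrc1 was not called. With olaparib, the 3 genes rose opposite F133V cells by 3.48-, 4- and 2.06-fold. They then read 1.04-, 1.17- and 1.16-fold below their levels opposite vector cells with olaparib, and Nos2 passed its level opposite vector cells with DMSO. Of the 5 tested members, 4 were called for the partner with DMSO, all lower (53.6% of all 14262 tested genes were called), and 4 for olaparib opposite F133V cells, 3 higher and Mrc1 lower (57.5% of all tested genes). For the partner with olaparib 3 were called (35.2% of all), and for olaparib opposite vector cells 4 (28.4%). With calls this common, a count of called members says little, and the sizes of the changes carry the description.

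Nos2 (chromosome 11, 78920787 to 78960254, plus strand, GRCm38) makes nitric oxide from arginine. In the 3 libraries opposite vector cells with DMSO it read 38.9, 41.7 and 40 CPM, from 1223 to 1371 reads. Opposite vector cells with olaparib it read 55.5, 54.5 and 53 CPM. With F133V partners it read 14.8, 15.3 and 14.8 CPM with DMSO and 52.1, 50.4 and 53.8 with olaparib. The F133V libraries with DMSO lay far below all others, and no other library read under 38.9. The log2 fold change for the partner was −1.42 ± 0.04 (SE) with DMSO (adjusted p = 4.31e-32) and −0.06 ± 0.03 with olaparib (adjusted p = 0.178, 95% interval −0.13 to 0.01). Olaparib moved Nos2 by 0.43 ± 0.04 opposite vector cells (adjusted p = 1.86e-14) and by 1.8 ± 0.04 opposite F133V cells (adjusted p = 1.85e-37). The difference between those responses, the interaction, was 1.37 ± 0.06 (adjusted p = 1.24e-26, 49.3% of all tested genes called). The order was vector with olaparib and F133V with olaparib, which did not differ beyond the test, then vector with DMSO, then F133V with DMSO. F133V with olaparib against vector with DMSO gave 0.38 ± 0.04 (adjusted p = 1.7e-12). All 5 tested members were called in that comparison, Nos2 higher and the other 4 lower (34.9% of all tested genes). The Arg2 call among them (−0.78 ± 0.28, adjusted p = 0.0227) was lost with DESeq2 (adjusted p = 0.0737) and without vector DMSO library 1 (0.156), F133V olaparib library 2 (0.0717) or F133V olaparib library 3 (0.0858).

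The arginases were scarce in these macrophages. Arg1 (chromosome 10, 24915221 to 24927484, minus strand), the cytosolic arginase of alternative activation, had 2, 6 and 2 reads opposite vector cells with DMSO and 9, 7 and 9 with olaparib. With F133V partners it had 0, 0 and 1 reads with DMSO and 1, 7 and 9 with olaparib. These counts failed the filter on low counts, and 3 reads corresponded to 0.0763 to 0.0982 CPM in these libraries. The F133V libraries with DMSO lay below every library of both vector-partner groups but reached 1 library of the F133V olaparib group. Fitted without the filter, with 24776 genes, Arg1 was lower opposite F133V cells with DMSO (adjusted p = 0.0215) and higher with olaparib opposite F133V cells (adjusted p = 0.000896). Its interaction had an adjusted p of 0.13 in the same fit. Because 1 to 25 reads per group lie behind these values, no fold is given. The unfiltered fit also gave other p-values for the tested members. For the partner with DMSO the adjusted p of Nos2 was 1.19e-204, against 4.31e-32 with the filter. That of Arg2, with few reads, was 0.0245 against 0.0186. The adjusted p of the unfiltered fit are thus not on the scale of the filtered one.

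Arg2 (chromosome 12, 79130777 to 79156301, plus strand), the mitochondrial arginase, was higher than Arg1 but still near 1 CPM. It read 1.27, 0.912 and 0.917 CPM opposite vector cells with DMSO and 0.424, 0.716 and 0.365 with olaparib. Libraries opposite F133V cells read 0.542, 0.56 and 0.767 CPM with DMSO and 0.698, 0.554 and 0.549 with olaparib. The vector libraries with DMSO stood above all others, and the other 3 groups overlapped. Its change for the partner with DMSO was −0.73 ± 0.27 (adjusted p = 0.0186), and for olaparib opposite vector cells −1.04 ± 0.28 (adjusted p = 0.00356). Opposite F133V cells the olaparib change was −0.05 ± 0.29 (adjusted p = 0.908, 95% interval −0.64 to 0.54). The interaction was 0.99 ± 0.41 (adjusted p = 0.0408), and its call was lost with DESeq2 and in the unfiltered fit (adjusted p = 0.0581). It was also lost without any 1 of 6 libraries: vector DMSO 1, vector olaparib 1 and 3, F133V DMSO 1 and 2, and F133V olaparib 1 (adjusted p = 0.0825 to 0.128). The call for the partner with DMSO was lost without vector DMSO library 1 (adjusted p = 0.138), F133V DMSO library 1 (adjusted p = 0.0732) or F133V DMSO library 2 (adjusted p = 0.07). Exons of Arg2 overlap those of Vti1b and Gm48780, and the sources used here do not give the strand setting of the counting, so part of its reads could belong to those genes.

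Irg1 (chromosome 14, 103046977 to 103056573, plus strand), whose start region is printed above, showed the largest partner difference of the tested members. It read 12.3, 13.7 and 12.4 CPM opposite vector cells with DMSO and 8.09, 8.33 and 7.97 with olaparib. Opposite F133V cells it read 1.49, 1.73 and 1.97 CPM with DMSO, from 55 to 72 reads, and 7.56, 7.37 and 5.95 with olaparib. No library of one group overlapped another group. The partner change with DMSO was −2.89 ± 0.11 (adjusted p = 5.2e-29), rank 11 by size among all 14262 tested genes. With olaparib it was −0.23 ± 0.09 (adjusted p = 0.0354), and this small difference lost its call in 6 of 18 alternatives, among them without F133V olaparib library 3 (−0.12, adjusted p = 0.353). Olaparib changed Irg1 in opposite directions, by −0.65 ± 0.08 opposite vector cells (adjusted p = 2.42e-09) and by 2 ± 0.12 opposite F133V cells (adjusted p = 1.47e-20). The interaction was 2.66 ± 0.14 (adjusted p = 6.65e-22). With olaparib opposite F133V cells, Irg1 stayed below its level opposite vector cells with DMSO by 1.85-fold (−0.88 ± 0.08, adjusted p = 6.9e-13), where Nos2 was above it.

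The interleukin-1 pair was nearly all antagonist. Il1rn (chromosome 2, 24336853 to 24351494, plus strand), which blocks the interleukin-1 receptor, read 54.2, 52.9 and 52.4 CPM opposite vector cells with DMSO and 55.1, 57.2 and 56.3 with olaparib. Opposite F133V cells it read 23.7, 23.9 and 22.8 CPM with DMSO and 49.2, 47.4 and 48.5 with olaparib. The F133V libraries with DMSO again lay apart, below 24 CPM, and the F133V olaparib libraries lay below both vector groups. The partner change was −1.18 ± 0.04 with DMSO (adjusted p = 4.52e-32) and −0.22 ± 0.03 with olaparib (adjusted p = 2.68e-07). Olaparib changed Il1rn by 1.04 ± 0.04 opposite F133V cells (adjusted p = 1.17e-29) and by 0.08 ± 0.03 opposite vector cells (adjusted p = 0.0526). The latter crossed the threshold in 4 alternatives, with adjusted p from 0.0393 to 0.0494, and was 0 when scaled by library size alone (adjusted p = 0.994). The interaction was 0.96 ± 0.05 (adjusted p = 7.96e-23).

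Il1b (chromosome 2, 129364570 to 129371139, minus strand), the ligand itself, had 0, 5 and 10 reads opposite vector cells with DMSO and 0, 1 and 1 with olaparib. Opposite F133V cells it had 2 reads in each library with DMSO and 2, 0 and 5 with olaparib. It failed the filter, and the vector DMSO libraries spanned the whole range of the other 3 groups. Fitted without the filter it was called only for olaparib opposite vector cells, among the 5 macrophage comparisons planned (adjusted p = 0.0378), on 15 reads with DMSO, 10 of them from 1 library, against 2 with olaparib. Its exons overlap those of Il1bos, and without the strand setting the reads of the pair cannot be told apart. As for Arg1, the adjusted p of the unfiltered fit is not on the scale of the filtered one.

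Mrc1 (chromosome 2, 14229392 to 14332057, plus strand), the mannose receptor, was lower with olaparib opposite both partners. It read 7.54, 8.66 and 8.64 CPM opposite vector cells and 8.67, 9.21 and 8.19 opposite F133V cells, both with DMSO. With olaparib it read 4.44, 4.32 and 4.35 CPM opposite vector cells and 6.4, 5.67 and 5.93 opposite F133V cells. The DMSO groups overlapped, and every olaparib library lay below every DMSO library. Olaparib changed Mrc1 by −0.92 ± 0.09 opposite vector cells (adjusted p = 8.8e-12) and by −0.53 ± 0.08 opposite F133V cells (adjusted p = 2.48e-07). The fall was smaller opposite F133V cells, with an interaction of 0.39 ± 0.12 (adjusted p = 0.00817). For the partner the change was 0.07 ± 0.08 with DMSO (adjusted p = 0.475, 95% interval −0.09 to 0.23) and 0.46 ± 0.1 with olaparib (adjusted p = 0.000124).

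The remaining members were at or near the detection limit in macrophages. Il10 (chromosome 1, 131019845 to 131024974, plus strand) had no read in 11 macrophage libraries and 3 reads in F133V olaparib library 1. Chil3 (chromosome 3, 106147554 to 106167564, minus strand) had no read in any of the 36 libraries. Its near-identical paralog Chil4 had 1 read over all macrophage libraries, and reads that fit both copies equally well may not have been counted for either. Cd38 (chromosome 5, 43868553 to 43912375, plus strand) had 2 to 3 reads opposite vector cells with DMSO, 1 to 4 with olaparib, and 0 to 2 in the 6 libraries opposite F133V cells. In a macrophage library, 0 reads allow a level of up to 0.0763 to 0.0982 CPM, a limit that covers counting error only.

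**Figure D2:**
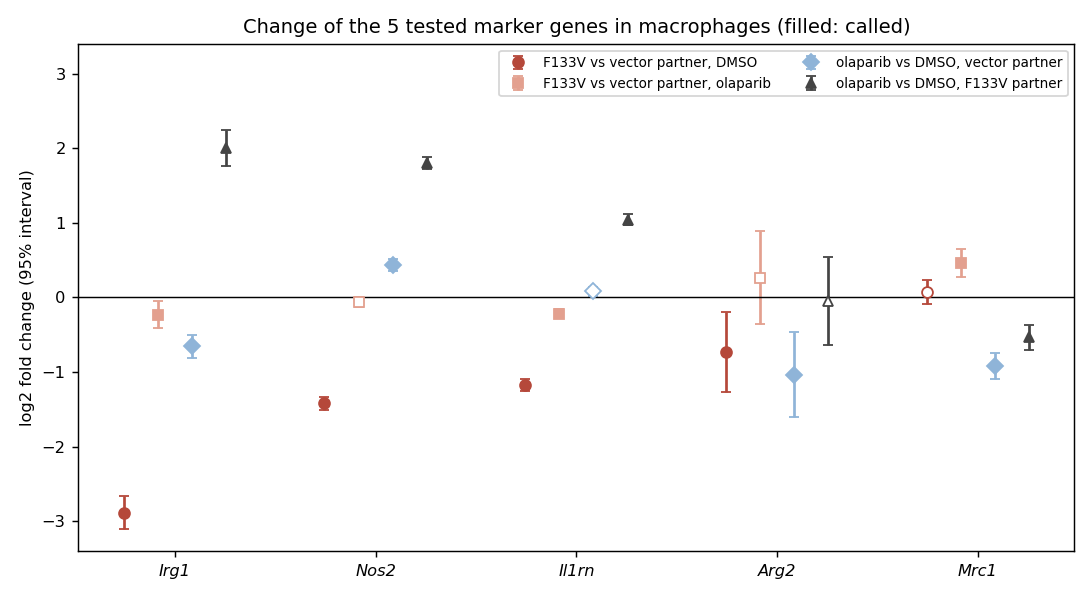
Log2 fold changes (vertical axis) with 95% intervals for the 5 tested marker genes in 4 comparisons of macrophage groups, from edgeR's quasi-likelihood fit of 12 libraries. Filled symbols were called. For Irg1, Nos2 and Il1rn the partner difference with DMSO is negative and the olaparib change opposite F133V cells is positive, while both olaparib changes of Mrc1 are negative.

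Levels can be compared between genes only per length, as CPM divided by the exon length in kilobases (RPKM). On that scale Nos2 and Il1rn led, with group means from 3.39 to 12.3 and from 4.24 to 10.2, followed by Irg1 (0.66 to 4.88), Mrc1 (0.686 to 1.36) and Arg2 (0.351 to 0.723). Arg1 stayed between 0.0041 and 0.106. The ratio of Nos2 to Mrc1 per length had a median of 6.95 opposite vector cells with DMSO (6.69 to 7.45) and 18.1 with olaparib (17.6 to 18.2). Opposite F133V cells it was 2.46 with DMSO (2.4 to 2.61) and 12.8 with olaparib (11.8 to 13.1), so the 4 groups did not overlap. The ratio was lowest where Nos2 was low and Mrc1 high, and it was higher with olaparib opposite both partners. The ratio of Il1rn to Irg1 had a median of 2 opposite vector cells with DMSO, 3.25 with olaparib, 6.55 opposite F133V cells with DMSO and 3.08 with olaparib, and the olaparib groups overlapped.

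Across the 12 macrophage libraries, log2 CPM of Il1rn correlated with that of Nos2 (Pearson r = 0.96) and Irg1 (0.95). Mrc1 gave −0.71 with Nos2, −0.61 with Il1rn and −0.37 with Irg1. The libraries fall into 4 groups, so these coefficients describe the group means and have no p. The genes most like Nos2 were Map2k1, Malt1 and Adm (r = 0.997 each). Adm, which encodes the peptide adrenomedullin, read 61.2, 82.5, 14.8 and 77.7 CPM in the groups vector DMSO, vector olaparib, F133V DMSO and F133V olaparib. Irg1 was most like Srrm1 (0.991), Ifngr2 (0.991) and Gsn (0.989). Ifngr2, a chain of the interferon-gamma receptor, read 97.4, 94.4, 78.1 and 91.9 CPM in the same order, a far smaller range than that of Irg1. Il1rn was most like Mcl1 (0.999), Anxa2 (0.998) and Ptk2b (0.998), and Mcl1, a survival protein of the BCL2 family, read 982, 1010, 587 and 914 CPM. Mrc1 was most like Sla (0.978), Slfn2 (0.95) and Nbeal2 (0.949), with Sla, an adaptor that dampens receptor signalling in blood cells, at 12.2, 6.56, 13.1 and 8.96 CPM. Arg2 was most like Trpm2 (0.921), Zadh2 (0.902) and Tmem194b (0.87).

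Values of RNA quality moved with the groups too. The nuclear RNA Rn7sk averaged 1.68 CPM opposite vector cells with DMSO, 3.84 with olaparib, 5.55 opposite F133V cells with DMSO and 2.29 with olaparib. The mitochondrial ribosomal RNA mt-Rnr2 averaged 354, 513, 511 and 372 CPM in that order. The whole list of 5 such genes summed to 7610 to 8560, 10500 to 10800, 6830 to 8350 and 7790 to 8040 CPM. The macrophage markers summed to 11000 to 11200, 10700, 9780 to 9980 and 9470 to 9520 CPM, so their sum was lower opposite F133V cells with both treatments. Single markers went in both directions. With DMSO, Lyz2 averaged 4630 CPM opposite vector and 3820 opposite F133V cells, and Csf1r 981 and 777. Cd53 averaged 478 and 572, and Fcgr1 20.2 and 54.4. Rn7sk was highest in the group where Nos2, Irg1 and Il1rn were lowest. The 5 quality genes summed highest opposite vector cells with olaparib. The part of all these values in the differences of the members was not tested.

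Other genes of the markers' pathways came from 7 lists. For the partner with DMSO, where the median log2 change of all tested genes was −0.01 and 47.5% of all calls were higher, 7 of 20 tested classical activation genes were higher and 11 lower (median −0.15). With scaling by library size alone the share of higher calls over all genes was 59.3%, and this list again had 7 higher and 11 lower. Genes named below as higher, lower, risen or fallen were called. Fcgr1, the high-affinity IgG receptor, rose from 20.2 ± 0.806 to 54.4 ± 1.82 CPM (SD, n = 3), and the costimulatory ligand Cd86 from 5.03 ± 0.24 to 9.06 ± 0.864. The chemokine Ccl3 fell from 214 ± 1.4 to 136 ± 3.01 CPM, and Nfkbia, the inhibitor of NF-kB, from 80.1 ± 0.159 to 45.8 ± 1.81. The classical list thus held called genes in both directions beside the falls of Nos2 and Irg1.

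Of 21 tested alternative activation genes, 6 were higher and 14 lower opposite F133V cells with DMSO (median −0.31). The lectin Mgl2 rose from 1.25 ± 0.443 to 3.33 ± 0.282 CPM, and the scavenger receptor Cd36 changed by 0.24 ± 0.04 (adjusted p = 9e-07). The angiogenic factor Vegfa fell from 261 ± 2.62 to 154 ± 1.52 CPM, and the lectin Lgals3 from 2580 ± 26.5 to 1940 ± 32.1. With olaparib opposite F133V cells 14 of these 21 were higher and 3 lower (median 0.24), with 49.6% of all calls higher, or 36.7% when scaled by library size alone. Vegfa then read 317 ± 5.14 CPM and Mgl2 1.12 ± 0.163. The 20 classical genes had 8 higher and 5 lower in that comparison (median 0.06), or 7 and 7 (median −0.01) when scaled by library size alone, among them Ccl3 (0.96 ± 0.02, adjusted p = 2.7e-40) and Fcgr1 (−1.19 ± 0.04, adjusted p = 1.21e-30).

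Around the arginine enzymes, 13 of 22 tested genes of arginine and polyamine metabolism were higher opposite F133V cells with DMSO and 4 lower (median 0.11). Scaled by library size alone 15 were higher and 3 lower (median 0.16). With the main scaling and olaparib opposite F133V cells 4 were higher and 13 lower (median −0.19). Slc7a1, the cationic amino acid transporter that imports arginine, read 296 ± 4.63 CPM opposite vector cells with DMSO, 470 ± 2.74 opposite F133V cells with DMSO and 331 ± 2.91 with olaparib. Aldh18a1, which starts proline and ornithine synthesis from glutamate, read 105 ± 2.45, 189 ± 3.12 and 109 ± 0.507 CPM. Both were high where Nos2 was low. Nos1, the neuronal nitric oxide synthase, was lowest in the same group as Nos2. It read 84.4 ± 2.53, 41.2 ± 2.23 and 104 ± 2.19 CPM, and its exons overlap those of Gm26995. Azin1, which protects ornithine decarboxylase from degradation, read 280 ± 2.81, 215 ± 7.83 and 314 ± 6.92 CPM, and overlaps Gm49077.

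Around Irg1, 10 of 23 tested genes of itaconate and the citric acid cycle were higher and 5 lower for the partner with DMSO (median 0.05). Scaled by library size alone 15 were higher and 4 lower (median 0.1), with 59.3% of all calls higher. With the main scaling, olaparib opposite F133V cells left 2 higher and 17 lower (median −0.13). Malate dehydrogenase Mdh1 read 122 ± 3.27 CPM opposite vector cells and 224 ± 6.53 opposite F133V cells, both with DMSO. There it fell by 0.75 ± 0.02 on the log2 scale with olaparib (adjusted p = 1.58e-32), and its exons overlap those of Wdpcp. Pdk1, the kinase that holds pyruvate dehydrogenase inactive, read 238 ± 4.3, 134 ± 1 and 224 ± 4.07 CPM in the groups vector DMSO, F133V DMSO and F133V olaparib, lowest where Irg1 was lowest. The cytosolic enzymes Idh1 and Acly, which handle isocitrate and citrate, changed by −0.41 ± 0.02 and −0.32 ± 0.02 for the partner with olaparib (adjusted p = 1.24e-20 and 3.61e-19). In that comparison 10 genes of the list were lower and 2 higher (median −0.05), with 49.9% of all calls higher. Scaled by library size alone 5 were lower and 5 higher (median 0.01), with 75.6% of all calls higher. The list thus had no direction for the partner with olaparib that held under both scalings.

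In the interleukin-1 system, 5 of 18 tested genes were higher and 8 lower for the partner with DMSO (median −0.06), and 6 were higher and 7 lower for olaparib opposite F133V cells (median −0.04). Irak2, a kinase downstream of the receptor, read 116 ± 2.97, 75.5 ± 0.937 and 131 ± 2.77 CPM opposite vector cells with DMSO, F133V cells with DMSO and F133V cells with olaparib, and its exons overlap those of Gm43963. Nlrp3, the inflammasome sensor, read 76.5 ± 1.29, 47.7 ± 1.52 and 57.5 ± 0.904. Il18, a cytokine of the same family, ran the other way at 2.12 ± 0.262, 3.98 ± 0.532 and 2.04 ± 0.419. The adaptor Myd88 likewise read 55.3 ± 1.12, 67.7 ± 1.25 and 49.7 ± 0.28, with exons that overlap those of Acaa1a.

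Around Il10, which was itself near 0, 2 of 15 genes were higher and 11 lower for the partner with DMSO (median −0.3), and 11 were higher and 2 lower for olaparib opposite F133V cells (median 0.21). The receptor chain Il10ra read 51.9 ± 2.42, 24.8 ± 0.236 and 35.3 ± 0.974 CPM opposite vector cells with DMSO, F133V cells with DMSO and F133V cells with olaparib. Heme oxygenase 1 (Hmox1), which degrades heme, read 210 ± 0.209, 123 ± 1.3 and 257 ± 5.38. Of 13 tested NAD enzymes, 2 were higher and 6 lower for the partner with DMSO (median −0.13), and 5 higher and 4 lower for olaparib opposite F133V cells (median −0.17). Nampt, the rate-limiting enzyme of NAD salvage, read 233 ± 3.08, 182 ± 4.84 and 255 ± 3.28 CPM in the same order of groups. Bst1, the paralog of Cd38 that also uses NAD, read 36.4 ± 1.04, 44.7 ± 1.79 and 33.8 ± 1.21 CPM, and its exons overlap those of Fbxl5.

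Opposite vector cells, olaparib moved the lists as follows. Of the 20 classical activation genes 3 were higher and 9 lower (median −0.14), and of the 21 alternative activation genes 6 were higher and 6 lower (median 0). Over all genes 49.1% of calls were higher. Scaled by library size alone that share was 14.7%, and the alternative activation genes had 3 higher and 9 lower. Ccl3 rose from 214 ± 1.4 to 314 ± 4.42 CPM and Ccl4 from 58 ± 2.32 to 91.3 ± 1.29, both chemokines of inflammatory macrophages, while Il10ra fell from 51.9 ± 2.42 to 33.7 ± 0.97. For the interaction, where 52% of all calls were higher, the lists went in both directions. Of the 21 alternative activation genes 15 were higher and 2 lower (median 0.35), and of the 15 genes of the Il10 axis 12 were higher and 2 lower (median 0.32). The classical activation genes had 10 higher and 5 lower (median 0.18), the interleukin-1 system 8 and 3 (median 0.17), and the NAD enzymes 6 and 2 (median 0.11). Arginine and polyamine metabolism had 4 higher and 11 lower (median −0.18), and itaconate and the citric acid cycle 2 higher and 15 lower (median −0.11). Every macrophage comparison here shares libraries with another, so the counts are given side by side only.

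**Figure D3:**
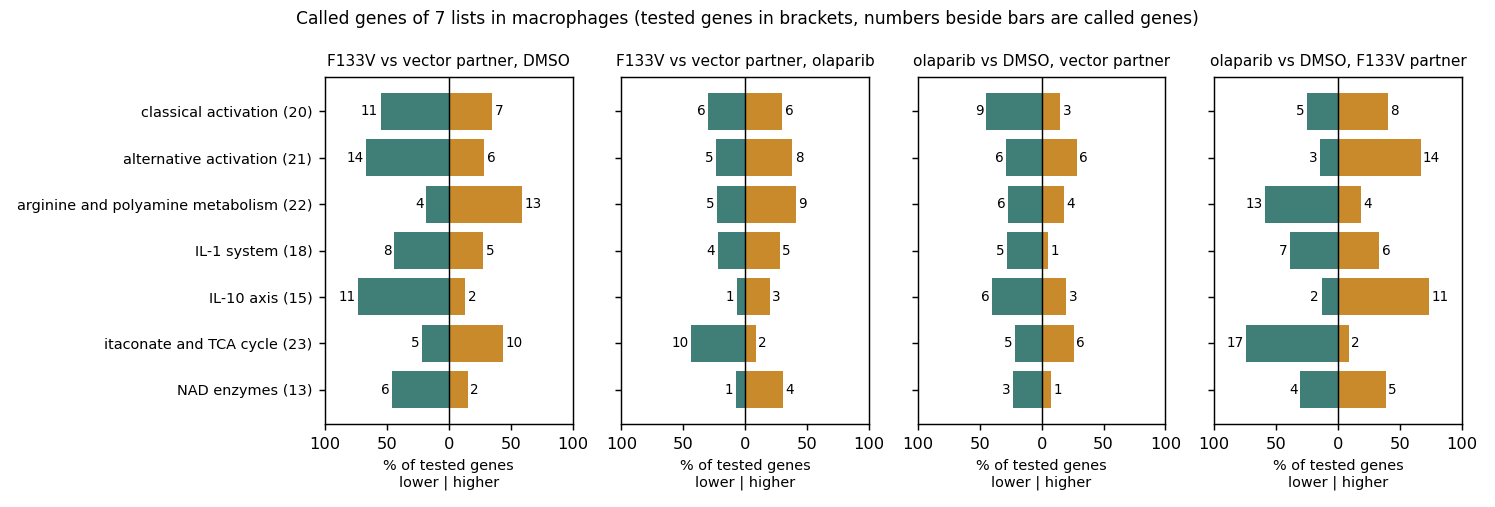
Share of the tested genes (horizontal axis, percent) that were called lower (left) or higher (right) in 7 gene lists, in 4 comparisons of macrophage groups. The number of called genes stands beside each bar and the number tested in brackets; the alternative activation list has 14 lower for the partner with DMSO and 14 higher for olaparib opposite F133V cells.

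The cancer libraries gave a contrasting set of members. Per length, Cd38 averaged 5.77 to 12 RPKM in cancer groups and at most 0.0216 in macrophage groups, while Nos2, Il1rn, Irg1 and Mrc1 were highest in macrophages. Il1rn had 0 to 2 reads in each of the 24 cancer libraries, against 834 to 2005 in macrophages. Irg1 had 1 to 9 reads in the 6 libraries of vector cells in coculture and 0 to 2 in the other 18. Il1b and Chil3 had no read in any cancer library, Il10 had 2 reads in 1 library of vector cells grown alone with olaparib, and Arg1 had at most 1 read per library.

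**Figure D4:**
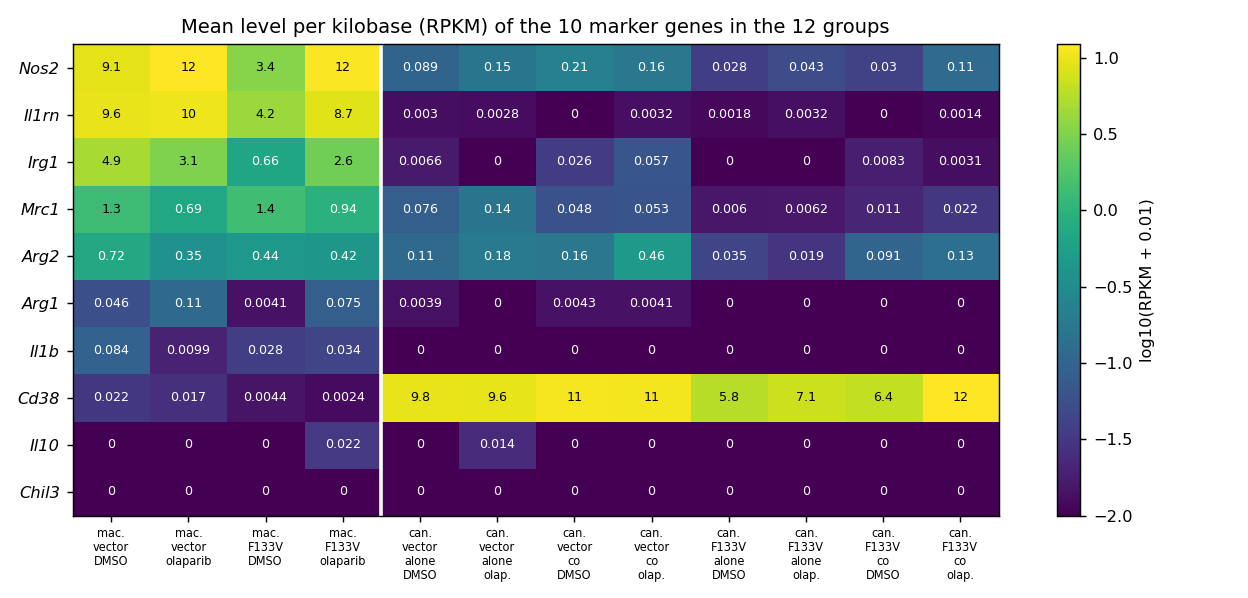
Mean CPM per kilobase of exon (RPKM, printed in each cell, colour on a log10 scale) of the 10 marker genes in the 4 macrophage groups (left) and the 8 cancer groups (right). Cd38 is high only in the cancer columns, Nos2, Il1rn and Irg1 are high in the macrophage columns, and Chil3 is 0 in every column.

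In cancer cells Cd38 was lower in F133V than in vector coculture with DMSO, and was higher with olaparib in F133V coculture. In coculture with DMSO it read 42.9, 47.3 and 40.6 CPM in vector cells and 23.6, 25.2 and 25.6 in F133V cells. In coculture with olaparib it read 42.9, 42.2 and 42.9 CPM in vector cells and 47.3, 44.9 and 47.7 in F133V cells. The F133V libraries with DMSO lay apart from all the others in coculture. The genotype difference was −0.82 ± 0.06 with DMSO (adjusted p = 8.79e-16) and 0.13 ± 0.05 with olaparib (adjusted p = 0.0349). The latter lost its call when scaled by library size alone (0.08, adjusted p = 0.22) and without each of 5 single libraries. Olaparib changed Cd38 by 0.91 ± 0.06 in F133V cells (adjusted p = 2.62e-17) and by −0.03 ± 0.05 in vector cells (adjusted p = 0.73, 95% interval −0.14 to 0.07). The interaction of genotype and olaparib was 0.94 ± 0.08 (adjusted p = 1.41e-13). Changes of this size were common in the cancer cells. Among all 15962 tested genes Cd38 ranked 6512 by size for the genotype with DMSO. It ranked 4863 for olaparib in F133V cells and 4432 for the interaction.

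In cells grown alone Cd38 read 38 ± 1.17 CPM in vector cells with DMSO and 37.2 ± 0.858 with olaparib. F133V cells grown alone read 20.9, 22.2 and 24.2 CPM with DMSO and 27.9, 24 and 30.8 with olaparib, and these groups overlapped. The olaparib change in F133V cells was larger in coculture than alone by 0.62 ± 0.09 (adjusted p = 5.97e-08), rank 6649 by size among all tested genes. Of the 4 members tested in cancer cells, Cd38 was the one called in that comparison (64.5% of all 15962 tested genes).

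Nos2, Mrc1 and Arg2 were low in cancer cells. Nos2 read 0.994, 1 and 0.769 CPM in vector coculture with DMSO against 0.0599, 0.0835 and 0.249 in F133V coculture, a difference of −2.87 ± 0.4 (adjusted p = 2.69e-08) on 109 against 12 reads. With olaparib F133V coculture read 0.354, 0.493 and 0.604 CPM, 1.94 ± 0.44 above DMSO (adjusted p = 0.000136), and its interaction of genotype and olaparib was 2.33 ± 0.52 (adjusted p = 0.000152). Vector coculture with olaparib read 0.801, 0.745 and 0.577 CPM, not called against DMSO (−0.38 ± 0.27, adjusted p = 0.357). The group means of Nos2 in macrophages were 15 to 54.3 CPM, against at most 0.922 in cancer groups. Mrc1 read 0.459, 0.21 and 0.256 CPM in vector coculture with DMSO and 0.0898, 0.0557 and 0.0712 in F133V coculture (−2.05 ± 0.6, adjusted p = 0.0022), on 36 against 7 reads. Arg2 rose with olaparib in vector coculture, from 0.306, 0.163 and 0.199 to 0.465, 0.771 and 0.715 CPM (1.53 ± 0.39, adjusted p = 0.00275), the opposite direction to that in macrophages opposite these cells. Macrophage markers in cancer libraries summed to 30 to 35.3 CPM in vector coculture and 17.8 to 21.7 in F133V coculture. They summed to 37.5 to 53.4 CPM in vector cells grown alone without macrophages. The largest means in vector coculture with DMSO were those of Cd53 (11 CPM), Mertk (8.64), Cd14 (6.99) and Cd68 (3.11). Mertk averaged 17.3 and 26 CPM in vector cells grown alone with DMSO and olaparib, against at most 0.0874 in macrophage groups. In vector coculture with DMSO, Lyz2 averaged 0.846 CPM and Csf1r 0.221, and Adgre1 had no count. Summed over 3 libraries of vector coculture, Il1rn had 0 reads with DMSO and 2 with olaparib, and Irg1 had 8 and 17. The part of macrophage RNA in the low cancer levels was not tested.

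Of these 4 members, 3 were called for the genotype in coculture with DMSO, all lower (Nos2, Mrc1 and Cd38; 79.5% of all tested genes), and 3 with olaparib, Cd38 higher and Arg2 and Mrc1 lower (60% of all). That call of Mrc1 (−1.27 ± 0.48, adjusted p = 0.0221) was lost with DESeq2 (adjusted p = 0.0521) and without vector olaparib library 3 (0.0862), F133V olaparib library 2 (0.0709) or F133V olaparib library 3 (0.069). For olaparib, Arg2 was called in vector coculture (23.6% of all) and Cd38 and Nos2 in F133V coculture (76.3%). For the interaction of genotype and olaparib Cd38 and Nos2 were called (67.4%). Scaling by library size alone moved the median of all genes for the genotype with DMSO from −0.059 to −0.311 and its share of higher calls from 47.1% to 34.7%. For olaparib in F133V coculture it moved the median from 0.025 to 0.231 and that share from 51.5% to 63.5%, and for the interaction of genotype and olaparib from 0.04 to 0.244 and from 52.6% to 65.9%. For the interaction of coculture and olaparib the shift was from 0.022 to 0.155, and the share went from 51.1% to 61.4%. Cd38 kept its direction under this scaling, at −1.07, 1.12, 1.15 and 0.75 in these comparisons. The 5 genes of RNA quality summed to 52400 to 57200 CPM in F133V coculture with DMSO, 11700 to 12800 with olaparib and 9040 to 10700 in vector coculture. They moved with the same groups as Cd38 and Nos2, and their part in those differences was not tested.

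**Figure D5:**
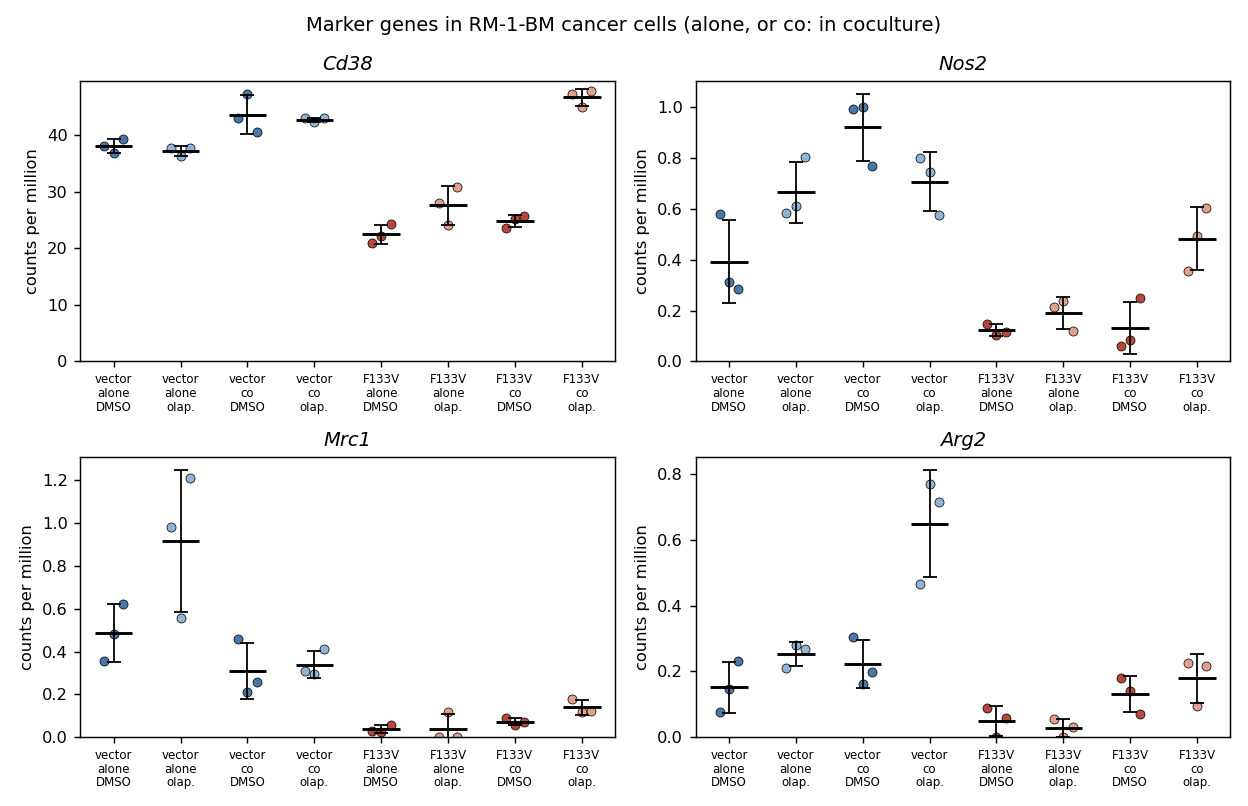
Levels in CPM (vertical axis, from 0) of Cd38, Nos2, Mrc1 and Arg2 in the 8 groups of cancer cells, grown alone or in coculture (co). Points are libraries, wide bars means and thin bars ± 1 SD of 3 libraries. Cd38 is at 20.9 to 25.6 CPM in F133V cells with DMSO and at 44.9 to 47.7 in F133V coculture with olaparib.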

How the data were processed

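RNA-seq libraries (36) were grouped from the labels: 12 of RAW264.7 macrophages in 4 groups of 3 and 24 of RM-1-BM cells in 8 groups of 3. The titles of the 3 vector-partner olaparib macrophage libraries name no partner, so the group entry of the labels was used. The macrophages' genotype entry is inconsistent and was not used. It names SPOP F133V for the F133V partner with DMSO and wild type for the F133V partner with olaparib, so the group entry was used there too. The authors deposited raw read counts per gene, 1 file per library with 46078 genes and 5 summary lines that were left out. The submitters' processing notes list STAR, TopHat, HTSeq, DESeq2 and build GRCm38; the sources used here give no versions, roles or strand setting. Between 17.1% and 21.5% of counted reads fell in no gene. Among 36 pairs of libraries within groups, none was identical.

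The counts were fitted per cell type in edgeR 4.0.16 under R 4.3.3 (TMM, filterByExpr with a minimum count of 10, quasi-likelihood F test, Benjamini-Hochberg over all tested genes). This left 14262 genes in macrophages (8 residual degrees of freedom) and 15962 in cancer cells (16). SE is the size of the log2 fold change divided by the square root of F. An interaction is the change with F133V minus that with vector, or in coculture minus that alone. RPKM uses merged exon length from GENCODE M21, which also gave positions. Start regions came from RefSeq (6 of the 10 members matched). Correlations used log2 CPM with a prior count of 2. Figures were drawn with matplotlib 3.10.9. The procedure was tested on simulated data.

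The members and lists were chosen with earlier results of these data known. All 10 members are named. From each list, up to 2 called genes per direction and comparison with the smallest adjusted p could be named, and for likeness the 3 genes with the highest r among those of at least 5 CPM. The exons of 20 of those 71 genes overlap another gene. The comparison of F133V partner with olaparib against vector partner with DMSO, and both interactions in cancer cells, were added after values were seen. Alternatives were DESeq2 1.42.0, scaling by RLE or by library size, fits of all genes unfiltered, fits of the compared groups alone, the replicate number as a block, and leaving out each library.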

Additional observations from a re-analysis of the deposited data

Results flagged for a closer look

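In macrophages the olaparib change differed between partners for all 5 tested members, by the test of the difference itself (edgeR's quasi-likelihood test of the interaction). The difference in log2 change, F133V partner minus vector partner, was 2.66 for Irg1, whose change had opposite signs with the 2 partners, 1.37 for Nos2, 0.96 for Il1rn, 0.99 for Arg2 and 0.39 for Mrc1. The Arg2 difference (adjusted p = 0.0408) lost its call with DESeq2 (adjusted p = 0.117), in the unfiltered fit (0.0581) and without any 1 of 6 libraries (0.0825 to 0.128). That of Mrc1 is a smaller fall opposite F133V cells, and that of Arg2 is a fall opposite vector cells with no called change opposite F133V cells. Over all tested genes 49.3% were called for this difference.

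In cancer cells in coculture the olaparib change differed between genotypes by 0.94 for Cd38 and 2.33 for Nos2, and 67.4% of all tested genes were called. The Nos2 value rests on 12 reads over the 3 F133V libraries with DMSO. In F133V cells the Cd38 change differed between coculture and growth alone by 0.62. By size, the Cd38 differences between genotypes and between culture forms ranked 4432 and 6649 among all 15962 tested genes.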

How the results depend on the processing

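The counts of called genes stayed within 1.5 times of the reported ones under each alternative run, for all 12 comparisons, and for the macrophage partner with DMSO they lay between 6584 and 7693. The calls of Nos2 in macrophages, and of Irg1 other than for the partner with olaparib, stayed past the threshold in all alternatives. Calls that were lost in some alternatives were those of Arg2 for the partner with DMSO (DESeq2, adjusted p = 0.0759, range 0.0132 to 0.138), for its interaction (DESeq2, 0.117, range 0.0116 to 0.128) and for F133V with olaparib against vector with DMSO (DESeq2, 0.0737, range 0.0156 to 0.156), of Irg1 for the partner with olaparib (DESeq2, 0.113, range 0.0169 to 0.353), and, for the genotype in cancer coculture with olaparib, of Mrc1 (DESeq2, 0.0521, range 0.00847 to 0.0862) and Cd38 (range 0.000684 to 0.22). Leaving out 1 library turned the direction of uncalled values only: Arg2 for olaparib opposite F133V cells ran from −0.17 to 0.12, and in vector coculture Mrc1 ran from −0.1 to 0.54 and Cd38 from −0.08 to 0.03. For the interaction of coculture and olaparib, without F133V coculture DMSO library 3 Nos2 was called (2.08, adjusted p = 0.0217), and without the F133V olaparib library 2 grown alone so was Mrc1 (4.53), whose group was then at 0 reads. The cause of these changes was not tested. Replicate numbers showed no sign of pairing in macrophages: of 18 pairs of same-numbered libraries none had deviations that correlated over 0.1 (−0.02 to 0.04). Cancer libraries were not checked, and a weak pairing could be missed because counting noise lowers such correlations. With a replicate block 7679 genes were called for the macrophage partner with DMSO against 7646, and no call of a member changed. Depth limits Arg1, Il1b, Il10, Cd38 and Chil3 in macrophages: with at most 10 reads in a library they failed the filter, and the calls of Arg1 and Il1b come from the unfiltered fit. The adjusted p of that fit are not on the scale of the filtered one.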
